A study of Bos taurus with 8 samples.

Results

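Glutathione S-transferases are the enzymes that join the tripeptide glutathione to reactive compounds so that a cell can export them. Of 26804 genes listed for bovine granulosa cells, 10 symbols of this family were looked up and 8 had a row of exactly that name, namely *GSTA1*, *GSTA2*, *GSTA3*, *GSTA4*, *GSTM3*, *GSTO1*, *GSTK1* and *MGST1*. Their Ensembl identifiers are ENSBTAG00000021516 (*GSTA1*), ENSBTAG00000006546 (*GSTA2*), ENSBTAG00000032642 (*GSTA3*), ENSBTAG00000004288 (*GSTA4*), ENSBTAG00000001842 (*GSTM3*), ENSBTAG00000003989 (*GSTO1*), ENSBTAG00000009839 (*GSTK1*) and ENSBTAG00000008541 (*MGST1*). *GSTM1* and *GSTP1* had no row of that exact name, and the rows named *GSTM1_1*, *GSTM1_2*, *GSTP1_1* and *GSTP1_2* are given with the other transferases.

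The cells came from multiparous, non-lactating beef cows, given as Angus in the series description and as crossbred *Bos taurus* in the paper, that underwent ovum pick-up once in summer (August) and once in winter (January in the series description, February in the paper). In both seasons the cows had received an intravaginal progesterone device, a GnRH analog and porcine FSH, and no unstimulated cows were sequenced. The 8 libraries were 4 of summer (replicates 1, 2, 3 and 5) and 4 of winter (replicates 1, 3, 4 and 5), each from the pooled RNA of a pair of cows. The cows' ages and the makeup of each pool are not given, and season cannot be told apart from the single collection session of that season.

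The cytosolic transferases fall into classes named by Greek letters. Those of the alpha class are abundant in liver and in steroid-producing cells, where they detoxify products of lipid peroxidation, and in humans GSTA3 also carries out the ketosteroid isomerase step in the synthesis of progesterone. The mu and pi classes conjugate a wide range of electrophiles, the omega class reduces mixed disulfides and dehydroascorbate, the kappa class resides in mitochondria and peroxisomes, and the microsomal transferases are membrane proteins of a separate family.

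Levels are given as scaled TPM, that is TPM recomputed over all genes but the 13 mitochondrial ones and divided by a trimmed mean of M-values (TMM) factor. Those 13 genes held 50.7% to 87.7% of TPM in summer and 85.1% to 92.0% in winter. The granulosa cell label was borne out by 16 marker genes, whose summed level was 30895 to 81573 scaled TPM in summer and 15066 to 20361 in winter. Markers of other cells were present too, with summed levels of 7.05 to 24.7 in summer and 44.7 to 216 scaled TPM in winter for 12 lymphocyte genes, 32.3 to 118 in summer and 122 to 1180 in winter for 13 myeloid genes, and 812 to 1783 in summer and 1641 to 4597 in winter for 10 genes of surface epithelium. The widest gap was that of 7 red blood cell genes, at 39.0 to 98.9 in summer and 566 to 42449 in winter, while 9 fibroblast genes were at 174 to 318 in summer and 382 to 1166 in winter, 6 smooth muscle genes at 28.8 to 95.4 in summer and 140.9 to 204 in winter, and 9 oocyte genes at 9.12 to 15.9 in summer and 0.468 to 1.49 in winter. The 12 pan-leukocyte genes summed to 5096 to 20158 in summer and 2592 to 3439 in winter, of which *SRGN* alone averaged 14930 and 2387. The other 11 genes of that list were lower in summer. Nor did every fibroblast or surface epithelium gene follow its sum. *LUM* of the fibroblast list averaged 87.0 scaled TPM in summer and 37.1 in winter, and *PDGFRA*, *MFAP5* and *TCF21* also had higher summer means. *EPCAM* of the surface epithelium list averaged 30.3 in summer and 3.97 in winter, and *KRT18* and *UPK1B* also had higher summer means. Fewer cells of a type and less RNA per cell cannot be told apart in such bulk samples.

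*GSTA1* was one of the most abundant nuclear transcripts of these cells, and its mean scaled TPM differed little between seasons. On other scales, given below, the level of *GSTA1* was higher or lower in summer. Its scaled TPM was 15044, 18922, 13230.1 and 13759.6 across summer replicates 1, 2, 3 and 5, against 15975, 21089, 12467 and 15835 across winter replicates 1, 3, 4 and 5. The seasons overlapped throughout, and the highest and the lowest library were both of winter. Among all genes but the 13 mitochondrial ones *GSTA1* ranked between 2 and 4 in every library. This ranking includes 2 unnamed genes that 1 alternative left out of the total with the mitochondrial ones (log2 fold change of *GSTA1* -0.09 there). *GSTA1* held 95.03% to 97.8% of the summed TPM of the 8 genes in summer and 95.3% to 97.5% in winter. The highest library was 1.69 times the lowest, while this ratio had a median of 2.03 over the 4443 genes that averaged 20 scaled TPM or more.

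The other 7 genes were far lower. *GSTM3*, of the mu class, averaged 297 ± 136 scaled TPM in the 4 summer libraries (SD) and 327 ± 159.6 in the 4 winter libraries. *GSTA4*, whose enzyme favours hydroxynonenal, a product of lipid peroxidation, averaged 103 ± 39.6 scaled TPM over summer and 113 ± 23.9 over winter (SD, n = 4 each). Next came *GSTK1*, *MGST1*, *GSTA2* and *GSTO1*, with means of 61.6, 44.0, 32.9 and 28.9 scaled TPM in summer and 49.0, 66.5, 30.4 and 23.1 in winter, and *GSTA3* was the lowest. In this order *GSTA1* stood above *GSTM3* and *GSTM3* above *GSTA4* in all 8 libraries, and *GSTA4* above *GSTK1* in 7 of 8. *GSTK1* and *MGST1* changed places between seasons, each being higher in 4 of 8 libraries. *MGST1* stood above *GSTA2* in 6 of 8 and *GSTA2* above *GSTO1* in 4 of 8, and the ranges of each of these pairs overlapped in both seasons. *GSTO1* stood above *GSTA3* in 7 of 8, with separate ranges in summer and overlapping ones in winter.

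**Figure D1:**
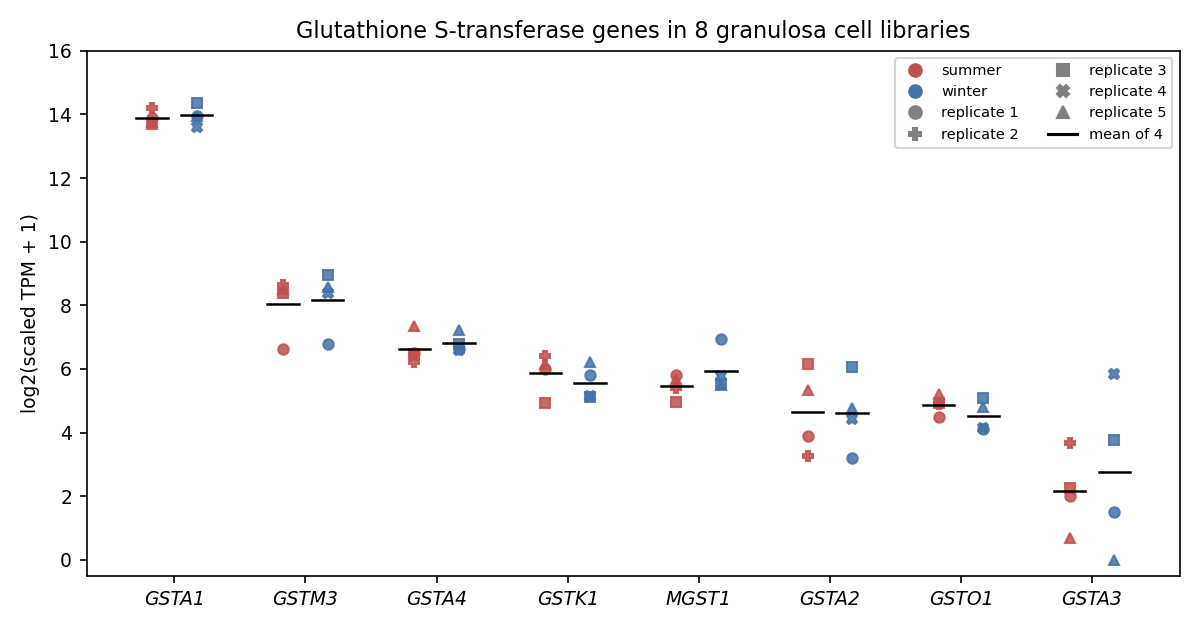
Level of each of the 8 glutathione S-transferase genes, as log2(scaled TPM + 1), with a point per library (summer left, winter right, the symbol giving the replicate number) and a bar at the mean of 4. *GSTA1* lies far above the others in every library, the seasons overlap for all 8 genes, and *GSTA2*, *GSTM3* and *GSTA3* vary most within a season.

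None of the 8 genes passed the test between seasons. By limma on log2(scaled TPM + 1), fitted over 13046 tested genes with Benjamini-Hochberg adjustment, 0 of 8 passed an adjusted p of 0.05 and 0 of 8 an unadjusted p of 0.05, where 21.2% of all tested genes passed the adjusted p (11% higher and 10.2% lower in summer). None was called at 2-fold either, where 6.14% of tested genes were called higher and 6.67% lower, and 3 of 8 had a positive log2 fold change, where 52.2% of tested genes did. The groups of libraries overlapped for all 8, where 13% of tested genes lay wholly higher and 11.3% wholly lower in summer. The log2 fold change, summer minus winter, of *GSTA1* was -0.09 (standard error 0.22, 95% interval -0.56 to 0.38, adjusted p = 0.802). On this scale the intervals of *GSTA1*, *GSTA4* (-0.18, interval -0.70 to 0.35, adjusted p = 0.635) and *GSTO1* lay within a 2-fold change. The median over the 8 genes was -0.11, beside 0.03 over all tested genes.

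*GSTO1*, the thioltransferase of the omega class, had 21.5, 28.5, 29.4 and 36.2 scaled TPM in summer and 16.4, 32.6, 16.5 and 26.8 in winter (log2 fold change 0.35, interval -0.21 to 0.91, adjusted p = 0.355). *GSTK1* had 63.4, 83.5, 29.3 and 70.4 scaled TPM in summer and 55.2, 33.6, 34.3 and 72.9 in winter (log2 fold change 0.30, interval -0.44 to 1.05, adjusted p = 0.561). Both seasons held high and low libraries of each of these genes. The intervals of *GSTM3* (-1.26 to 1.002) and *GSTA2* (-1.46 to 1.53) reached past 2-fold both ways, so that a change of that size could not be told from none with 4 libraries per season.

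*MGST1*, the membrane-bound transferase of the endoplasmic reticulum and outer mitochondrial membrane, was measured at 54.6, 41.0, 30.3 and 49.99 scaled TPM across summer replicates 1, 2, 3 and 5, against 122, 44.9, 54.4 and 44.4 across winter replicates 1, 3, 4 and 5. Winter replicate 1 stood apart from the other 7 libraries, which overlapped. Its log2 fold change of -0.48 had an adjusted p of 0.297 by limma, and it was -0.15 without winter replicate 1. That library also held the most *KRT19*, a keratin of simple epithelia, with 2142 scaled TPM beside 679 to 1394 in the 3 remaining winter libraries. It held the most of the surface epithelium list as a sum, with 4597 beside 1641 to 3006, though not of each of its genes. *KRT7*, *EPCAM*, *WT1* and *LHX9* of that list were instead higher in another winter library. The part of surface epithelial cells in the level of *MGST1* was not tested.

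*GSTA3* was the least abundant and the most uneven of the 8 genes. It was measured at 3.02, 11.8, 3.82 and 0.618 scaled TPM across summer replicates 1, 2, 3 and 5, against 1.83, 12.4, 55.8 and 0 across winter replicates 1, 3, 4 and 5. Winter replicate 4 was the highest by far, and winter replicate 5 was listed at 0. The log2 fold change of -0.61 (interval -2.999 to 1.79, adjusted p = 0.728) turned to 0.42 without winter replicate 4. That library also held the most of the myeloid list as a sum, though not of each of its genes, with 1180 scaled TPM beside 122 to 235 in the 3 remaining winter libraries. The part of such cells was not tested.

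**Figure D2:**
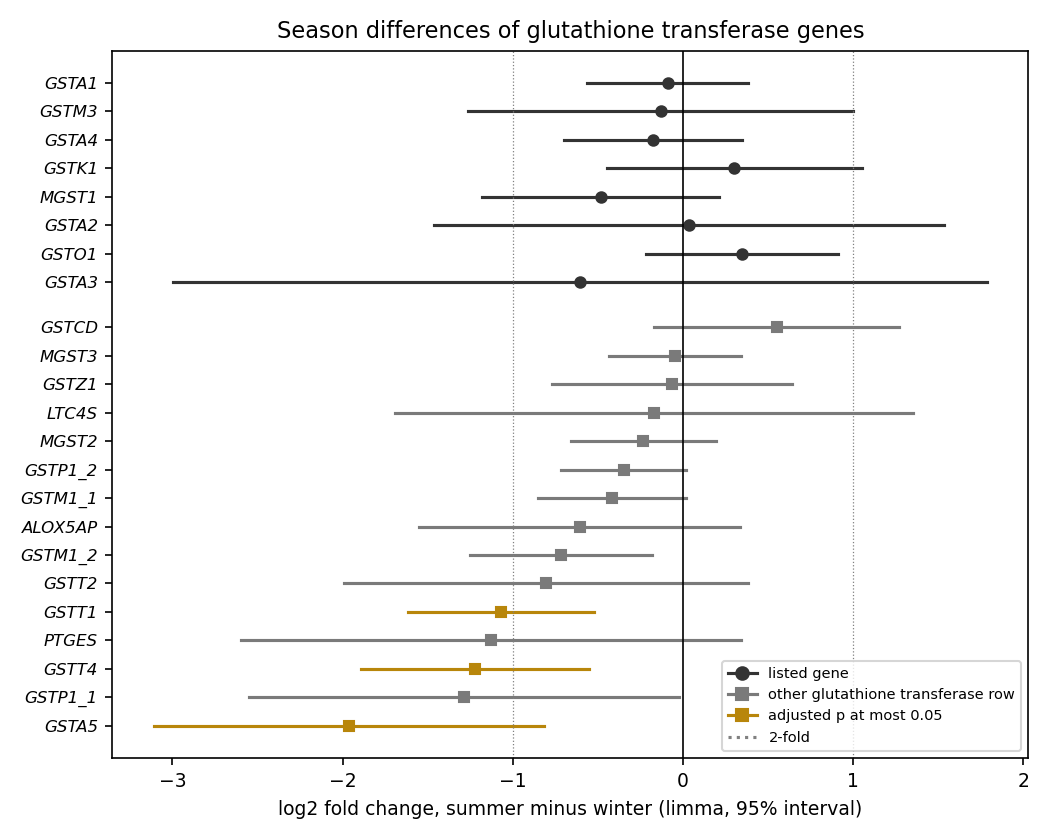
Log2 fold change, summer minus winter, with its 95% interval from limma on log2(scaled TPM + 1), for the 8 listed genes (round points, above) and the 15 other transferase rows that were tested (square points, below). All 8 intervals of the listed genes cross 0, and the coloured rows *GSTT1*, *GSTT4* and *GSTA5* passed the adjusted p, all lower in summer.

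*GSTA1* was also set against the markers of granulosa cells, most of which were higher in summer. *FOXL2* (log2 fold change -0.75, adjusted p = 0.0991 by limma) and *AMHR2* (-0.46, adjusted p = 0.467) were instead lower, and neither passed. Of the 16 markers, 11 passed the adjusted p as higher and 0 as lower by limma (median log2 fold change 1.21), among them the FSH receptor gene *FSHR* (1.24, adjusted p = 0.00697). The difference of *GSTA1* from the mean log2 level of this list was 5.07, 5.68, 5.50 and 5.19 in summer replicates 1, 2, 3 and 5, against 6.71, 7.04, 5.98 and 6.70 in winter replicates 1, 3, 4 and 5. Every summer library thus lay below every winter library, by a mean of -1.24 on the log2 scale (exact p = 0.0286, two-sided, from 2 of the 70 ways to permute the season labels, the smallest p possible). *GSTA1* itself did not pass, so this difference is mostly that of the markers, which were chosen with their rise in these data known, and its p is no independent test of *GSTA1*. Under quantile normalization the difference was -0.90 (exact p = 0.143), and without any 1 of the 4 summer libraries the exact p was 0.0571.

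**Figure D3:**
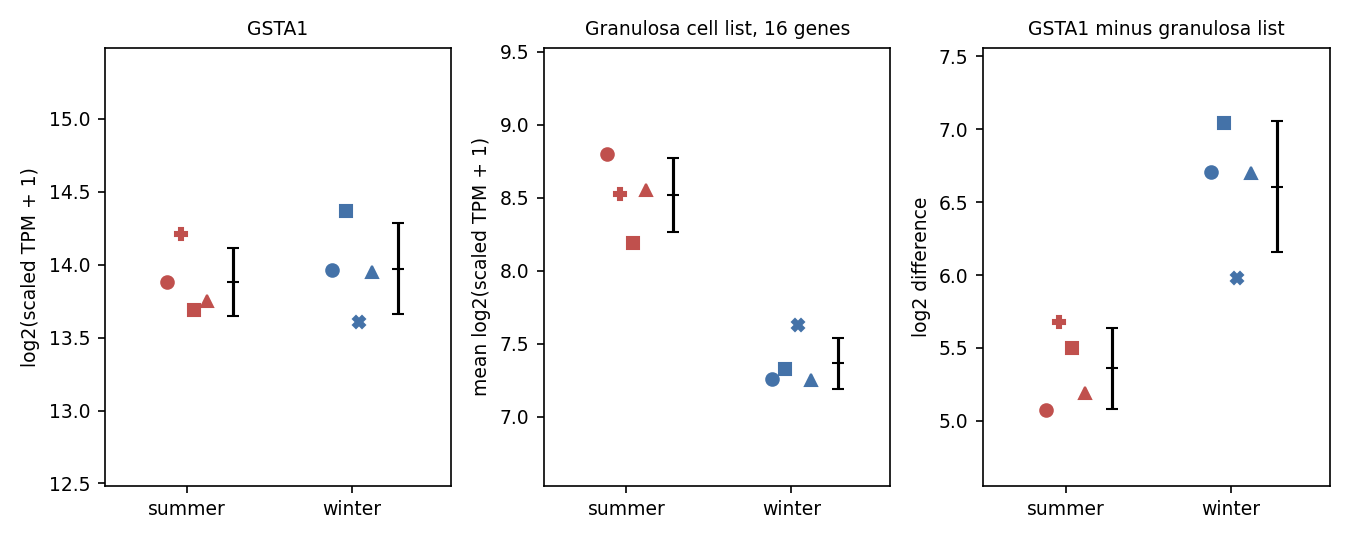
Log2 level of *GSTA1* (left), mean log2 level of the 16 granulosa cell markers (middle) and their difference (right) in each library, with the mean and SD of 4 libraries beside the points and an equal span on all 3 axes. *GSTA1* overlaps between seasons, the markers lie at 8.19 to 8.80 in summer and 7.25 to 7.63 in winter, and the difference is lower in every summer library.

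The scale decides the direction for most of these genes. On the deposited TPM, whose totals include the mitochondrial genes, all tested genes together had a median log2 fold change of 0.89, the 8 genes had one of 1.3004, and 6 of the 8 passed, all higher, where 62.9% of all tested genes passed in either direction. *GSTA1* then averaged 4899 ± 2739 TPM over summer and 1694 ± 757 over winter (SD, n = 4 each) (log2 fold change 1.42, adjusted p = 0.00946). With the geometric mean of the granulosa cell list set equal in every library, all tested genes had a median of -0.92, the 8 genes had one of -1.26, and 5 of the 8 passed, all lower, where 60.4% of all tested genes passed in either direction. Both counts are thus near the share of all genes. The 5 were *GSTA1* (-1.24), *GSTA4* (-1.32), *GSTM3* (-1.28), *GSTK1* (-0.83) and *MGST1* (-1.61).

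Within a season, several of the 8 genes differed more between libraries than between seasons, and for some of them the libraries with the same replicate number had similar levels. *GSTM3* had 97.5 scaled TPM in summer replicate 1 and 109 in winter replicate 1, against 333 to 397 in the other summer libraries and 333 to 489 in the other winter libraries. *GSTA2* was highest in replicate 3 of both seasons, at 70.4 scaled TPM in summer and 66.4 in winter, and had 13.7 in summer and 8.24 in winter in replicate 1, with summer replicate 2, which has no winter partner, at 8.63. *GSTA4* was highest in replicate 5 of both seasons, at 161 scaled TPM in summer and 147.8 in winter, and *GSTK1* was lowest in replicate 3 of both, at 29.3 in summer and 33.6 in winter. Winter replicate 4 was nearly as low in *GSTK1*, at 34.3. The order of replicates 1, 3 and 5 was the same in both seasons for 3 of the 8 genes (*GSTA2*, *GSTA3* and *GSTK1*), and for 18.9% of all tested genes. *GSTA1* showed no such likeness, with 13230.1 scaled TPM in summer replicate 3 and 21089 in winter replicate 3.

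After these values had been seen, the replicate number was tested as a term beside season in the 6 libraries of replicates 1, 3 and 5, by limma over all 13046 genes. *GSTM3* ranked 4 and *GSTA2* ranked 6 of all genes by p, with adjusted p = 0.0740 for *GSTM3* and 0.101 for *GSTA2*, so that neither passed 0.05. Replicate 3 exceeded replicate 1 by 1.96 for *GSTM3* and 2.57 for *GSTA2*, and replicate 5 exceeded it by 1.83 for *GSTM3* and 1.501 for *GSTA2*, all on the log2 scale and over both seasons. At an unadjusted p of 0.05 stood 6 of the 8 genes, all but *GSTA1* and *GSTO1*, where 7.36% of all tested genes did. Of all tested genes 0.00767% passed the adjusted p, which is 1 gene, the unnamed ENSBTAG00000034185 (adjusted p = 0.0486). The same herd was collected from in summer and again in winter. The paper writes of corresponding replicates across seasons and cell types, which were left out together when a library failed quality control. Yet summer replicate 2 and winter replicate 4 have no partner of equal number here. Whether an equal number marks a pool of the same cows is not stated. Genotype, cell makeup and handling of a pool cannot be told apart.

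**Figure D4:**
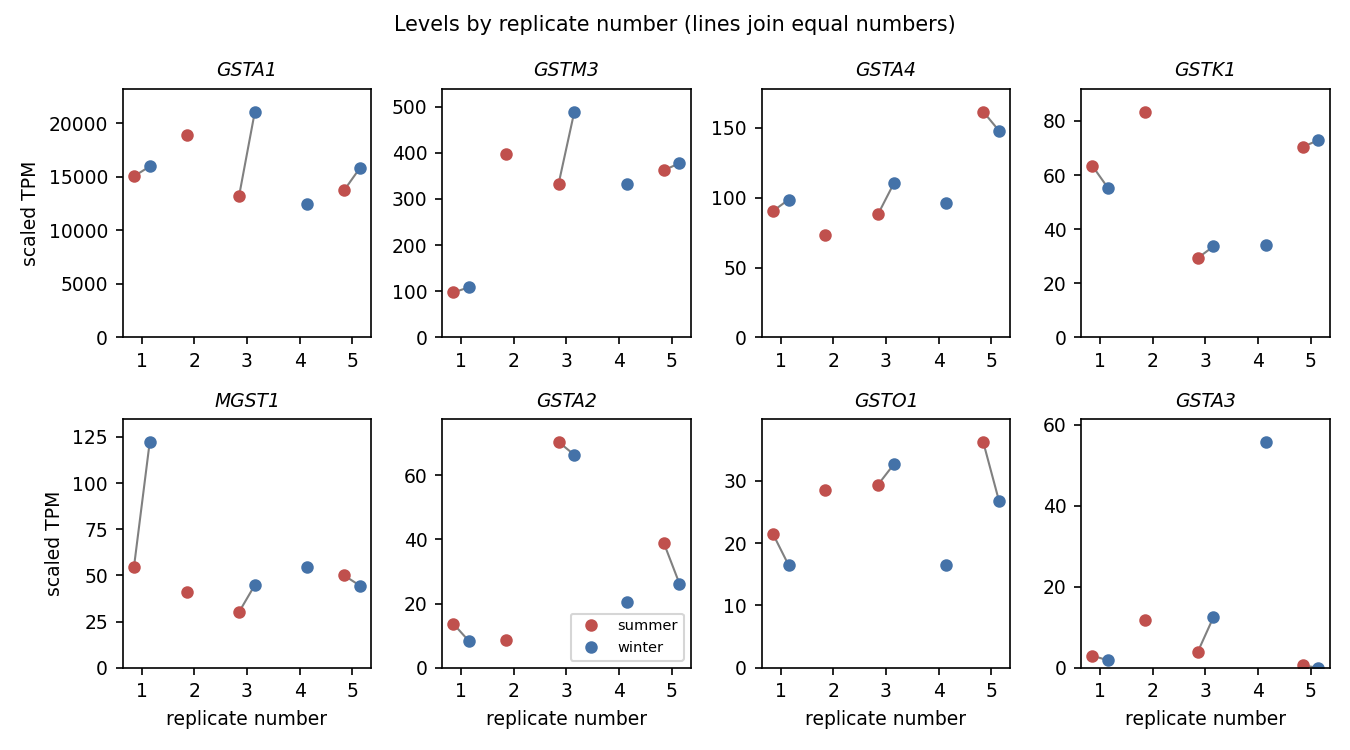
Scaled TPM of each of the 8 genes by replicate number, with a point per library (summer left of winter at each number) and lines that join the libraries of equal number. *GSTM3* is at 97.5 and 109 in both libraries of replicate 1, *GSTA2* at 70.4 and 66.4 in both of replicate 3, and *GSTA4* at 161 and 147.8 in both of replicate 5.

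Among the other transferase genes, *GSTA5*, *GSTT1* and *GSTT4* were lower in summer. Of 18 listed, 15 had a row, 13 were tested, 3 passed as lower and 0 as higher by limma, and 12 of the 13 had a negative log2 fold change (median -0.61). Of all tested genes 10.2% passed as lower and 11% as higher, and 52.2% had a positive log2 fold change. *GSTA5*, which lies between *GSTA1* and *GSTA3* in the cluster of 5 alpha-class genes of the RefSeq annotation (order *GSTA2*, *GSTA1*, *GSTA5*, *GSTA3*, *GSTA4*, assembly ARS-UCD2.0), had 411, 133, 142 and 284 scaled TPM in summer, against 799.9, 344, 2260 and 824 in winter. Winter replicate 3 was the 1 winter library within the summer range, and the log2 fold change of -1.96 passed by limma (adjusted p = 0.0235). This call ended without summer replicate 2 (adjusted p = 0.0684), summer replicate 3 (0.0563) or winter replicate 5 (0.0534), with robust variance estimation (0.0592), and on the deposited TPM, where the log2 fold change was -0.44 (0.479). The level of *GSTA5* was 0.702% to 2.73% of that of *GSTA1* in summer and 1.63% to 18.1% in winter, and that of *GSTA2* was 0.0456% to 0.532% of it in summer and 0.0516% to 0.315% in winter. Alpha-class paralogs can share reads, and how many reads of *GSTA1* were assigned to its neighbours was not measured, so the levels of the low alpha-class genes are uncertain.

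*GSTT1* and *GSTT4*, of the theta class, were lower in summer as well. *GSTT1* had 25.1, 17.3, 23.4 and 19.8 scaled TPM in summer and 39.8, 44.2, 32.4 and 74.9 in winter, with no overlap (log2 fold change -1.07, adjusted p = 0.0135 by limma), and it passed without any 1 library. Of all tested genes 11.3% lay wholly lower in summer. On the deposited TPM its log2 fold change was 0.35. *GSTT4* had 0.277, 1.23, 0.447 and 1.16 scaled TPM in summer and 1.71, 3.33, 4.03 and 3.44 in winter (log2 fold change -1.22, adjusted p = 0.0182), a call that ended without summer replicate 1 (adjusted p = 0.0642). On the deposited TPM *GSTT4* was at -0.12 (adjusted p = 0.458). Beside these genes 11 of 12 pan-leukocyte genes passed as lower in summer, where 10.2% of all tested genes did. The remaining gene, *SRGN*, passed as higher by limma (log2 fold change 2.46, adjusted p = 0.00252). The part of leukocytes in the levels of *GSTT1* and *GSTT4* was not resolved, since 0 of 13046 genes passed in a limma fit with that list as a covariate (1143 at an unadjusted p under 0.05).

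The rows that stand for *GSTP1* and *GSTM1* did not pass. *GSTP1_2*, the more abundant of the pi-class rows, had 351, 373, 260.3 and 359 scaled TPM in summer and 339.5, 412, 432 and 532 in winter (log2 fold change -0.35, adjusted p = 0.159), and *GSTP1_1* was at 0.312 to 3.03 in summer and 1.16 to 14.6 in winter (-1.29, adjusted p = 0.132). *GSTM1_1* averaged 16.3 scaled TPM in summer and 22.3 in winter (-0.42, adjusted p = 0.157) and *GSTM1_2* 15.5 and 26.0 (-0.72, adjusted p = 0.0584). The microsomal *MGST2* (-0.23, adjusted p = 0.417) and *MGST3* (-0.04, adjusted p = 0.886), the zeta-class *GSTZ1* (-0.06, adjusted p = 0.912), *GSTT2* (-0.80, adjusted p = 0.311) and *GSTCD* (0.55, adjusted p = 0.253) did not pass either. *GSTO2* was listed at 0 in all libraries but winter replicate 4, and *HPGDS*, the prostaglandin D synthase of the sigma class, was listed at 0 in all 8.

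Genes that make glutathione were measured beside those that use it. Of 22 genes of glutathione synthesis and turnover, 19 were tested, 4 passed as higher and 0 as lower in summer by limma, with a median log2 fold change of 0.13. Of all tested genes 11% passed as higher and 10.2% as lower, 21.2% in either direction. In either direction the count is thus near the share of all genes. The catalytic subunit of the rate-limiting glutamate-cysteine ligase, *GCLC*, had 644, 396, 469.9 and 617 scaled TPM in summer and 354, 330.1, 261 and 321 in winter (a rise of 0.73 on the log2 scale, adjusted p = 0.0153). Every summer library lay above every winter library, as for 13% of all tested genes, and *GCLC* passed the adjusted p without any 1 library. Its modifier subunit *GCLM* averaged 43.2 ± 7.28 scaled TPM over summer and 20.6 ± 9.85 over winter (SD, n = 4 each), a rise of 1.17 on the log2 scale (limma, adjusted p = 0.0396) whose call ended without any 1 summer library or winter replicate 3 (adjusted p of up to 0.0965). *GGCT*, which cleaves gamma-glutamyl dipeptides, rose by 1.01 (adjusted p = 0.00961), and *CTH*, which makes cysteine from cystathionine, had 1.85, 1.64, 2.19 and 0.903 scaled TPM in summer and 0, 0, 0 and 0.243 in winter (adjusted p = 0.00562). Glutathione synthetase, *GSS* (-0.43, adjusted p = 0.0941), and glutathione reductase, *GSR* (-0.01, adjusted p = 0.981), did not pass.

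**Figure D5:**
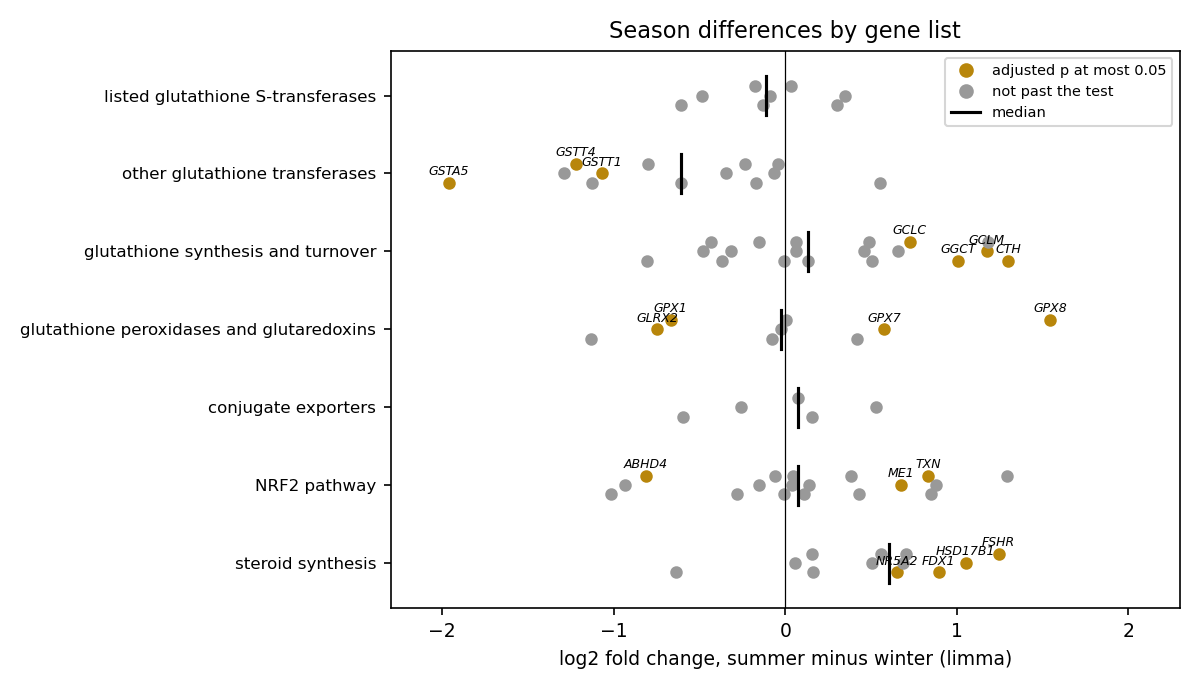
Log2 fold change, summer minus winter, of every tested gene of the listed transferases and of 6 gene lists, with genes past the adjusted p coloured and named and a bar at each median. The 8 listed transferases lie between -0.61 and 0.35 with none past the test, and *GPX1* and *GPX8* moved in opposite directions. Of 19 tested genes of glutathione synthesis and turnover 4 passed, all higher, where 21.2% of all tested genes passed in either direction.

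Genes of the peroxidase family went both ways, with *GPX1* lower and *GPX8* and *GPX7* higher in summer. Of 9 tested genes of peroxidases and glutaredoxins, 2 passed as higher and 2 as lower, where 11% of all tested genes passed as higher and 10.2% as lower. *GPX1*, the main cytosolic peroxidase, had 2701, 2968, 2702 and 2466 scaled TPM in summer and 3529.5, 4821, 4227 and 4743 in winter (-0.67 on the log2 scale, adjusted p = 0.0109), wholly lower in summer like 11.3% of all tested genes. It passed without any 1 library but not under quantile normalization (-0.01, adjusted p = 0.968) or without the TMM factor (-0.38, adjusted p = 0.0601). *GPX8*, of the endoplasmic reticulum, had 163, 199.9, 70.2 and 220.4 scaled TPM in summer and 56.8, 34.0, 61.6 and 55.6 in winter (1.55, adjusted p = 0.00995), wholly higher in summer like 13% of all tested genes. The calls of *GPX7* (0.58, adjusted p = 0.0476) and *GLRX2* (-0.75, adjusted p = 0.0397) each ended without any of several libraries, with an adjusted p of up to 0.138 for *GPX7* and 0.0957 for *GLRX2*, and *GPX4* (0.00, adjusted p = 0.994) and *GPX3* (0.42, adjusted p = 0.221) did not pass.

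Regulators and exporters gave few calls. Of 18 genes of the NRF2 pathway, which induces many transferases, 2 passed as higher and 1 as lower, with a median log2 fold change of 0.08. Among all tested genes these shares were 11% and 10.2%. Thioredoxin, *TXN*, averaged 1974 ± 569.9 scaled TPM over summer and 1071 ± 117 over winter (SD, n = 4 each), a rise of 0.83 on the log2 scale (limma, adjusted p = 0.0213), but its call ended without summer replicate 1, 2 or 5 or winter replicate 1 (adjusted p of up to 0.0648). Those of *ME1* (0.67, adjusted p = 0.0428) and *ABHD4* (-0.81, adjusted p = 0.0389) ended without any of several libraries (adjusted p of up to 0.102 for *ME1* and 0.103 for *ABHD4*). The NRF2 gene *NFE2L2* (0.43, adjusted p = 0.138), its inhibitor *KEAP1* (-0.01, adjusted p = 0.979) and the target genes *NQO1* (0.04, adjusted p = 0.962) and *HMOX1* (-0.15, adjusted p = 0.675) did not pass. Of 5 tested exporters of glutathione conjugates 0 passed by limma, with 0 at an unadjusted p of 0.05, where 21.2% of all tested genes passed the adjusted p. Of 12 tested genes of steroid synthesis, 4 passed as higher and 0 as lower, where 11% of all tested genes passed as higher and 10.2% as lower. The 4 were *FSHR*, *FDX1* (0.90, adjusted p = 0.00868), *NR5A2* (0.65, adjusted p = 0.0126) and *HSD17B1* (1.05, adjusted p = 0.0265). *FSHR*, *NR5A2* and *HSD17B1* are also among the granulosa cell markers given above, so the lists are not separate results. The call of *HSD17B1* needed summer replicates 1, 2 and 5 and winter replicates 1 and 4 (without one of them, adjusted p of up to 0.0776). *CYP11A1*, the side-chain cleavage enzyme that starts steroid synthesis, averaged 1313 scaled TPM in summer and 1273 in winter (0.06, adjusted p = 0.850).

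Likeness to other genes is a description over 8 libraries, whose points share the library's depth and scaling. The genes most like *GSTA1* by Pearson r of log2(scaled TPM + 1) were *DCTPP1* (0.96), *RPL26L1* (0.95), *TRAPPC3* (0.94), *MRPL16* (0.93) and *MTFP1* (0.92), and with season means removed *XAB2* (0.97), *DCTPP1* (0.96), *RPL26L1* (0.96), *SEC61B* (0.95) and *MATK* (0.95). For *MGST1*, whose course rests on winter replicate 1, they were *FAT2* (0.96), *MOG* (0.96), the unnamed ENSBTAG00000054899 (0.94), *TK1* (0.93) and *CHD5* (0.93), and with season means removed *LDAF1* (0.98), *FGF2* (0.98), *FKBP14* (0.97), *FAT2* (0.97) and *SCN9A* (0.97). None of these was another glutathione S-transferase, which says little, since only 8 of the 13046 tested genes were listed members.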

How the data were processed

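Granulosa cell RNA of 4 summer and 4 winter pools was sequenced as polyadenylated RNA. The deposited values are TPM, which the authors computed, per the paper, after mapping to ARS-UCD1.3 in CLC Genomics Workbench with TMM normalization. The submitters' processing notes instead name bcl2fastq, Bowtie2 2.2.2, DESeq2 and ARS-UCD1.2. Every deposited library adds up to 1000000, so no TMM factor remains. The paper gives an average read number for the granulosa cell libraries, but the depth of each library is not given in the sources used here and the TPM values keep no counts, so counting error was not computed.

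For scaled TPM, the 13 mitochondrial genes were excluded and an unweighted TMM factor was applied (30% of M and 5% of A trimmed). Tested were 13046 genes whose zFPKM, a standardised log2 level, exceeded -3 in all 4 libraries of either season. The model was limma 3.58.1 (R 4.3.3, eBayes with a mean-variance trend) on log2(scaled TPM + 1), Benjamini-Hochberg adjusted over all tested genes. A call in the counts over all tested genes needed 2-fold and an adjusted p of 0.05. For a single named gene, a call means the adjusted p alone, kept under an alternative only in the same direction. The added 1 understates changes of low genes. The model, but not the scaling, was tested on simulated data drawn independently for each gene. The difference of *GSTA1* from the granulosa list was tested by exact permutation of the libraries, two-sided. P-values measure the spread between pools.

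Members, lists and tests were chosen with earlier results of these data known. The rule named all members, all tested genes of the list of other transferases, up to 4 passing genes of each further list by p, and the 5 genes most like *GSTA1* and *MGST1*. Other genes, among them *GSTM1_1*, *GSTM1_2*, *GSTO2*, *HPGDS*, single markers and list genes that did not pass, and the test of the replicate number, were chosen after values were seen. Alternatives changed the scaling, pseudocount, filter, variance model, library weights, covariates and replicate block, or left out 1 library. Figures were made in Python 3.11.15 (matplotlib 3.10.9).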

Additional observations from a re-analysis of the deposited data

Results flagged for a closer look

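*MGST1* in winter replicate 1, with 122 scaled TPM beside 44.4 to 54.4 in the 3 remaining winter libraries, lay farther from its group than Dixon's criterion allows (gap over range 0.872). It was the only such case in the 16 groups of 4 libraries examined for the 8 genes, and by chance about 5% of groups would meet the criterion.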

How the results depend on the processing

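Over 24 alternatives, 0 of the 8 genes passed the adjusted p in 22, and 6 passed on the deposited TPM and 5 with the granulosa cell list set equal. The number of genes called, 1671, was 5610 on the deposited TPM (98.6% of them higher in summer), 5873 with the granulosa list set equal (1.75% higher), 791 when 5 was added before the log, 268 with the mitochondrial share as a covariate, 0 with the pan-leukocyte level as a covariate (limma, 1143 genes at an unadjusted p under 0.05) and 1106 to 1837 without 1 library, the lowest without summer replicate 1. Without the TMM factor, 70.7% of calls were higher, against 47.9%, and all tested genes had a median of 0.28 on the log2 scale.

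Directions of log2 fold changes turned as follows, and the cause was not tested. On the deposited TPM, *GSTA1* was at 1.42, *GSTA3* at 0.049, *GSTA4* at 1.26, *GSTM3* at 1.34, *MGST1* at 0.93, *GSTT1* at 0.35, *GPX1* at 0.84, *GLRX2* at 0.64 and *ABHD4* at 0.58. With the granulosa list set equal, *GSTA2* was at -1.05, *GSTO1* at -0.76, *GSTK1* at -0.83, *GCLC* at -0.42, *GGCT* at -0.054, *GPX7* at -0.56, *TXN* at -0.32, *ME1* at -0.46, *FDX1* at -0.24, *HSD17B1* at -0.10 and *NR5A2* at -0.49. Without the TMM factor *GSTA1* was at 0.20, *GSTA4* at 0.11 and *GSTM3* at 0.16, and under quantile normalization *GSTA1* was at 0.39. With array weights *GSTA2* was at -0.46 and *GSTA3* at 0.018. With the mitochondrial share as a covariate *GSTM3* was at 0.54 and *GSTK1* at -0.045, and with the pan-leukocyte level *GSTA4* was at 0.75, *GSTM3* at 3.29, *GSTK1* at -0.57 and *GPX7* at -0.52. Leaving out 1 library gave -0.21 to 0.041 for *GSTA1*, -0.46 to 0.52 for *GSTA2*, -1.53 to 0.42 for *GSTA3* and -0.59 to 0.34 for *GSTM3*. The difference of *GSTA1* from the granulosa list was -0.90 under quantile normalization and -1.45 to -1.10 without 1 library. Of the 18 named genes outside the 8 that passed, 1 (*GGCT*) kept its call with the mitochondrial share as a covariate (adjusted p of 0.0914 for *GSTA5*, 0.113 for *GSTT1*, 0.176 for *GSTT4*, 0.183 for *GCLC* and 0.161 for *GPX8*) and 0 with the pan-leukocyte level, a limma fit in which no gene was called and *GSTA5* was at -3.91 and *GSTT1* at -0.78.

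Equal replicate numbers correlated at 0.04, 0.16 and 0.11 in their deviations from the season means for replicates 1, 3 and 5, not all above 0.1. These values cannot show whether the libraries are paired. The main fit left the replicate number out, since the cows of each pool are not stated. With the replicate block, 1426 genes were called, 1180 of them shared with the fit without it, 0 of the 8 genes passed, and *GSTK1* was at -0.015. Of the 18 named genes 10 lost their call under the block, namely *GCLM* (adjusted p = 0.0833), *GGCT* (0.0507), *GPX1* (0.0561), *GPX7* (0.0730), *GLRX2* (0.107), *TXN* (0.0763), *ME1* (0.104), *ABHD4* (0.0606), *HSD17B1* (0.0551) and *NR5A2* (0.0551). The depth of each library is not given in the sources used here, so the counting error of values near 0, as for *GSTA3*, *GSTT4* and *CTH*, was not computed.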

Other observations

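The transferase family of membrane proteins also holds the enzymes that make leukotrienes and prostaglandin E, and 3 of its genes peaked in 1 library. *PTGES*, the inducible prostaglandin E synthase, reached 152 scaled TPM in winter replicate 4, beside 10.3 to 23.9 in the 3 remaining winter libraries, and lay at 7.30 to 15.7 in summer. *LTC4S*, the leukotriene C synthase, reached 104.4 there, beside 5.50 to 11.4 in the remaining winter libraries, and lay at 12.97 to 15.8 in summer. *ALOX5AP*, which presents arachidonic acid to lipoxygenase, reached 4.84 there, beside 0.396 to 1.35 in the remaining winter libraries, and lay at 0.213 to 1.04 in summer. *GSTA5* (2260) and *GSTA3* (55.8) were highest in the same library. Of the marker lists, the myeloid one was highest there, with 1180 scaled TPM beside 122 to 235 in the remaining winter libraries. That sum held *S100A9* at 448 and *S100A8* at 278, and *TYROBP* was at 30.6 against 2.92 to 6.16. The myeloid genes *CSF1R*, *C1QB* and *LYZ* were instead higher in another winter library. Also highest in winter replicate 4 were the theca list, at 565 against 101.1 to 227, and the squamous and mucosal epithelium list, at 69.6 against 13.8 to 55.9. The lymphocyte list was lowest of winter there, at 44.7 against 70.3 to 216. The part of these cells in the 5 transferase genes was not tested. None of the 3 genes of eicosanoid synthesis passed between seasons by limma (adjusted p = 0.253 for *PTGES*, 0.891 for *LTC4S* and 0.336 for *ALOX5AP*).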
